A study of Mus musculus with 15 samples.

Results

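Among 10 genes of the p53 apoptosis programme, transcripts of the death receptors Fas and Tnfrsf10b, of the apoptosome gene Apaf1 and of the exonuclease gene Aen rose 135 min after an unfolded protein appeared in mouse fibroblasts. With 1 library left out, Apaf1 and Tnfrsf10b were called at 135 min in all 8 fits, Fas in 3 and Aen in 2. The survival genes Bcl2l1 and Mcl1 were not called against control at any time in the fit with group as its only term. The 10 genes were taken by symbol from tables of 20207 genes: 8 pro-apoptotic p53 targets (Bbc3, Pmaip1, Bax, Aen, Apaf1, Fas, Tnfrsf10b and Perp) and the anti-apoptotic genes Bcl2l1 and Mcl1. Of these, 8 could be tested, because Pmaip1 and Perp were at 0 counts in at least 1 library and were removed by the low-count filter.

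The cells were NIH3T3, an established line of mouse embryonic fibroblasts, and every group carried the same stably expressed transgene, a destabilizing domain (DD) fused to superfolder GFP. The DD, an L106P mutant of FKBP, needs its ligand Shield-1 (S1) to stay folded. S1 was taken away by adding a purified FKBP protein that captures it. RNA was collected from 5 control samples (no stress, time 0) and from samples taken 45 min (n = 3), 135 min (n = 3) and 405 min (n = 4) following withdrawal of S1. The cells were a population sorted for high GFP and not a clone, NIH3T3 cells without the transgene were not analysed here, and the labels do not say whether replicates came from separate cultures, so p-values measure only the spread between these samples. Transcript levels are given as CPM, the count scaled to the total of its library with edgeR's TMM factors, in the order of the replicate numbers. A gene is called higher or lower where the adjusted p-value was under 0.05.

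p53 is a transcription factor that is kept low by the ubiquitin ligase Mdm2 and that accumulates when a cell is stressed. It binds an element made of a pair of half-sites and induces genes for cell cycle arrest, such as Cdkn1a, and for cell death. The death genes act at separate steps. Fas and Tnfrsf10b are receptors at the cell surface, Bbc3 (PUMA) and Pmaip1 (NOXA) neutralize survival proteins of the BCL2 family, Bax permeabilizes the outer mitochondrial membrane, and Apaf1 assembles with cytochrome c to activate caspase-9. Bcl2l1 (BCL-XL in its main form) and Mcl1 are survival proteins that oppose Bax.

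Matches to the p53 element were searched because they show where the letters that p53 reads occur in these genes. The windows ran 2000 bp to each side of the start site given in the deposited coordinates (mm9, the same assembly as NCBIM37). A match was a pair of adjacent 10-base half-sites of the p53 element, each with its 4-base core intact, with at most 3 mismatches elsewhere in the 20 bases. The pattern is its own reverse complement, so both strands were covered. In the lines that follow, capitals mark the 20 bases of the match, and lower case marks 5 flanking bases on each side.
Fas, intron, chr19:34366849-34366878, plus strand, 2 mismatches: tggcaGGGCATGTACAAACATGTCAtcttg
Bbc3, upstream, chr7:16894830-16894859, plus strand, 3 mismatches: cccgaCTGCAAGCCCCGACTTGTCCccagc
Aen, exon, chr7:86040818-86040847, plus strand, 3 mismatches: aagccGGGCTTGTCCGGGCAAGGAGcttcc
Aen, intron, chr7:86042283-86042312, plus strand, 3 mismatches: ccctgGGCCAAGCATATACAAGCTTtcaca
Counted from the start site, the Fas match was centred at 1714 bp, the Bbc3 match at -88 bp and the Aen matches at 19 and 1484 bp. Pmaip1 held a further match with 2 mismatches at -165 bp. Thus 4 of the 10 genes held a match with at most 3 mismatches, against 9.17% of 9847 gene windows. With at most 2 mismatches the counts were 2 of 10 against 2.40%. The letters of such a match were not in the windows of Apaf1, Tnfrsf10b, Bax, Perp, Bcl2l1 or Mcl1. All 10 genes are protein-coding, and none shares an exon with another annotated gene.

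The shallowest library, control replicate 3, held 6652539 counts and the deepest, 45 min replicate 1, held 30258404, and counts of the tested genes among the 10 ranged from 9 to 5561 per library. The libraries fell into 2 sets that the labels do not name. Per 10 points of GC content in the exons, the level (log2 CPM) changed across genes by -0.398 to 0.0129 in control replicate 2, 45 min replicate 3 and 405 min replicates 1, 2 and 4 (set 2). The change was -1.42 to -0.678 in the other 10 libraries (set 1, which holds all 135 min libraries), and the first principal component separated the same libraries. Between sets, Bcl2l1 was higher in set 2 by 0.69 on the log2 scale (SE 0.18, edgeR adjusted p = 0.00444) and Aen by 0.40 (SE 0.13, edgeR adjusted p = 0.0181), while the other 6 tested genes did not pass. Of all tested genes, 5146 (50.1%) differed between the sets. The sets were drawn from these same data, at the widest gap in the change with GC content. These p-values thus describe the split and are not an independent test of it. Later fits with a term for the library set use the same split. Control replicate 3 lay farthest out on that component and held the lowest CPM of Bax, Mcl1, Bbc3 and Bcl2l1 among the controls. All 8 fibroblast markers had at least 1 count in every library, with a summed level of 15349 to 18333 CPM in control, 17510 to 17733 CPM at 45 min, 16687 to 17861 CPM at 135 min and 12031 to 16612 CPM at 405 min. Summed markers of epithelial, endothelial, blood, muscle and neural cells did not exceed 6.62 CPM in any library. In a bulk library, more cells with a transcript and more transcript per cell cannot be told apart.

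Levels of different genes were compared per length, as deposited RPKM (reads scaled to the length of the gene and to the size of the library). In control, the median RPKM ran from 39.5 for Bax through 19.6 for Aen, 11.4 for Mcl1, 8.14 for Bcl2l1 and 7.82 for Tnfrsf10b to 2.15 for Apaf1. Bbc3 (0.888), Fas (0.865) and Pmaip1 (0.214) were below 1 RPKM, and the median of Perp was 0. The ranges of neighbours in this order overlapped from Bax down to Tnfrsf10b, between Bbc3 and Fas, and between Pmaip1 and Perp. At 135 min the order had changed at the receptors. Tnfrsf10b, at 27.7 RPKM, stood above Mcl1 (17.3 RPKM) and Bcl2l1 (10.02 RPKM) with no overlap, and Fas, at 5.57 RPKM, overlapped only with Apaf1 (5.19 RPKM). RPKM values of control replicate 3 were low on the whole: Aen had 0.0997 RPKM per CPM there and 0.174 to 0.227 in the other 14 libraries.

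**Figure D1:**
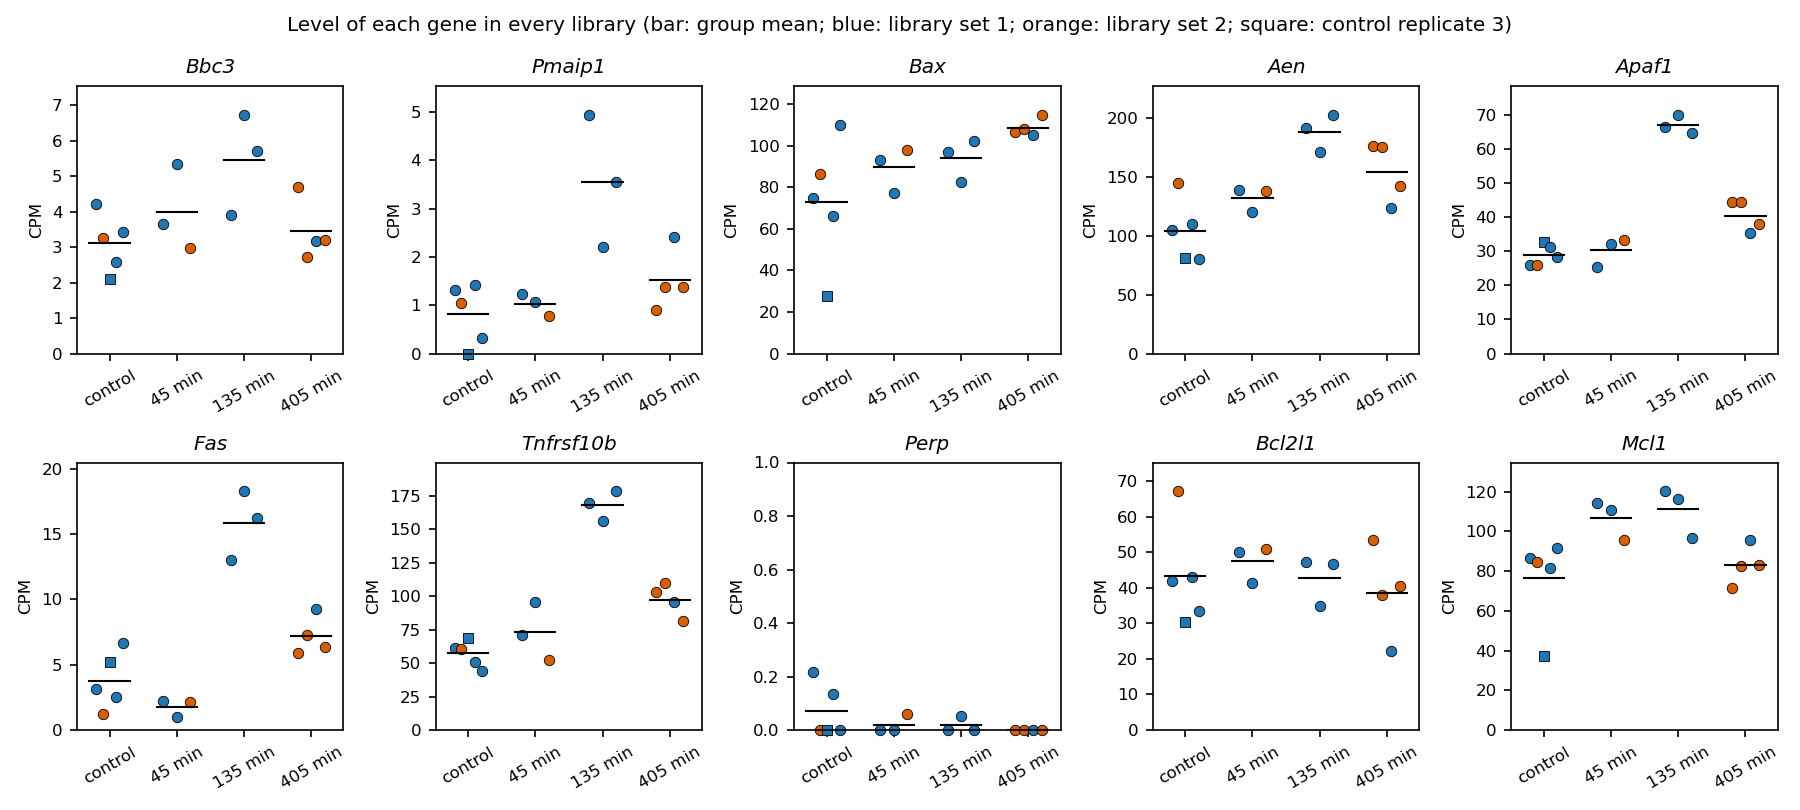
Level of each of the 10 genes in the 15 libraries, in CPM on linear axes that start at 0, by group. Each point is a library, the bar is the group mean, colours mark the library sets and the square is control replicate 3. The 135 min libraries of Apaf1, Fas and Tnfrsf10b lie above all others, while Perp stays at or near 0.

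The death receptor genes gave the largest changes among the tested genes of the 10. Tnfrsf10b, the only TRAIL receptor of the mouse that carries a death domain, measured 61.5, 60.6, 69.0, 51.2 and 43.7 CPM in the controls and 71.1, 96.0 and 52.3 CPM at 45 min. It then measured 169, 156 and 179 CPM at 135 min and 103, 110, 96.0 and 81.5 CPM at 405 min. All libraries of 135 and 405 min were above all controls, as for 4.79% and 6.75% of tested genes, and the 45 min libraries overlapped with them. The control mean was 57.2 ± 9.83 CPM (SD, n = 5) and that of 135 min was 168 ± 11.3 CPM (SD, n = 3). The rise was 2.94-fold, or 1.56 on the log2 scale (SE 0.19, edgeR adjusted p = 0.000399), where 0.564% of all 10276 tested genes were called higher. At 405 min it was still higher by 0.77 on the log2 scale (SE 0.18, edgeR adjusted p = 0.00868), or 1.71-fold, where 9.99% of tested genes were called higher. This gene was called in all 8 fits at 135 min and all 9 at 405 min that left out a single library. Within set 1, which holds 1 library of 405 min, the log2 difference at 405 min was 0.77, and within set 2, which holds 1 control, it was 0.68.

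Fas, the receptor of Fas ligand, was a low transcript in control, with 3.13, 1.25, 5.23, 2.51 and 6.63 CPM. It measured 2.23, 0.964 and 2.15 CPM at 45 min, 13.0, 18.3 and 16.2 CPM at 135 min, and 5.87, 7.30, 9.27 and 6.32 CPM at 405 min. The 135 min libraries stood above all others, where 4.79% of tested genes had all of them above all controls. The 405 min libraries overlapped with the highest control. At 135 min Fas was higher by 2.09 on the log2 scale (SE 0.41, edgeR adjusted p = 0.0201), or 4.27-fold. At 405 min the log2 difference was 0.95 (SE 0.39, edgeR adjusted p = 0.0853), and it passed with a term for the library set (1.35, edgeR adjusted p = 0.0469) and without control replicate 5 (1.30, edgeR adjusted p = 0.0342). The call at 135 min was lost without control replicate 1 or 4 or any of the 135 min libraries, with adjusted p between 0.0579 and 0.114 (edgeR) and log2 differences between 1.98 and 2.22. The table of 45 min replicate 2 lists a shorter Fas model (chr19:34365149-34383840) than the other 14 (chr19:34365149-34402260), with 9 counts, so its value cannot be set beside the others. The remaining 45 min libraries had a mean of 2.19 CPM.

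Apaf1, the scaffold of the apoptosome, had a small spread within each group. It measured 26.1, 26.0, 32.8, 31.1 and 28.2 CPM in control, 25.3, 32.1 and 33.4 CPM at 45 min, 66.3, 70.0 and 64.7 CPM at 135 min, and 44.3, 44.3, 35.3 and 37.9 CPM at 405 min. Every library of 135 and 405 min was above every control, as for 4.79% and 6.75% of tested genes. The 45 min libraries overlapped with the controls. The control mean was 28.8 ± 3.04 CPM (SD, n = 5), and that of 135 min was 67.0 ± 2.69 CPM (SD, n = 3). Apaf1 rose 2.33-fold by 135 min, or by 1.22 on the log2 scale (SE 0.15, edgeR adjusted p = 0.000399), and was still up by 0.49 at 405 min (SE 0.14, edgeR adjusted p = 0.0240). The call at 135 min held in all 8 fits without 1 library. At 405 min it was lost without control replicate 1 or 405 min replicate 1, 2 or 4 (edgeR adjusted p 0.0534 to 0.0796) and with a term for the library set (0.44, edgeR adjusted p = 0.0685).

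Aen, a nuclease known to enhance apoptosis after DNA damage, measured 105, 145, 80.9, 110 and 79.9 CPM in control and 139, 120 and 138 CPM at 45 min. It measured 191, 171 and 203 CPM at 135 min and 177, 175, 124 and 142 CPM at 405 min. The 135 min libraries were above all controls, as for 4.79% of tested genes. The 405 min libraries overlapped with control replicate 2, the only control in set 2. Aen rose by 0.85 on the log2 scale at 135 min (SE 0.19, edgeR adjusted p = 0.0341) and by 0.57 at 405 min (SE 0.17, edgeR adjusted p = 0.0317). At 135 min only the fits without control replicate 2 or 3 kept the call, and the other 6 gave edgeR adjusted p between 0.0720 and 0.185. At 405 min only those without control replicate 2 or 405 min replicate 3 kept it, and the other 7 gave edgeR adjusted p between 0.0578 and 0.103. With a term for the library set, the change was 0.95 at 135 min (edgeR adjusted p = 0.000788) and 0.36 at 405 min (edgeR adjusted p = 0.127).

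The BH3-only genes Bbc3 and Pmaip1 were scarce. Bbc3 measured 4.22, 3.26, 2.09, 2.58 and 3.42 CPM in control, 3.66, 5.36 and 2.98 CPM at 45 min, 3.90, 6.74 and 5.73 CPM at 135 min, and 4.70, 2.72, 3.19 and 3.19 CPM at 405 min. The groups overlapped at every time, and the log2 difference at 135 min was 0.79 (95% interval 0.13 to 1.46, edgeR adjusted p = 0.3004). Pmaip1 had 18, 21, 0, 21 and 6 counts in control, which is 1.31, 1.05, 0, 1.43 and 0.326 CPM. It had 1.23, 1.07 and 0.775 CPM at 45 min, 4.94, 2.19 and 3.54 CPM at 135 min, and 0.899, 1.38, 2.41 and 1.37 CPM at 405 min. All 135 min libraries were above all controls, as for 4.79% of the tested genes, which do not include Pmaip1. In the fit with edgeR's filterByExpr, which keeps Pmaip1, the log2 difference at 135 min was 2.05 (SE 0.65, 95% interval 0.66 to 3.44, edgeR adjusted p = 0.217), against 0.408% of 12261 genes called higher in that fit. At 405 min it was 0.79 (SE 0.62, edgeR adjusted p = 0.364).

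Bax, the effector at the mitochondrion, was the most abundant of the 10 genes per length. It measured 74.7, 86.5, 27.5, 66.1 and 110 CPM in control, 93.0, 77.5 and 98.2 CPM at 45 min, 96.8, 82.6 and 102 CPM at 135 min, and 107, 108, 105 and 115 CPM at 405 min. The controls overlapped with every later group. The log2 difference was 0.36 at 135 min (95% interval -0.25 to 0.97, edgeR adjusted p = 0.671) and 0.57 at 405 min (95% interval 0.012 to 1.13, edgeR adjusted p = 0.115). Without control replicate 3 the difference at 405 min was 0.34 (edgeR adjusted p = 0.118), and without control replicate 5 it was 0.77 and passed (edgeR adjusted p = 0.0486). Perp, a membrane protein gene of epithelia that p53 can induce, was at 0 counts in 11 of 15 libraries, and its highest expected count was 2.99. That lies at or under a floor of 3 counts in every library, which was 0.0992 to 0.522 CPM over the libraries on the same TMM-scaled scale, so no difference was detectable at this depth.

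Of the survival genes, Bcl2l1 overlapped with the controls at every time. It measured 42.0, 67.2, 30.3, 43.0 and 33.5 CPM in control, 50.2, 41.4 and 50.9 CPM at 45 min, 47.2, 34.9 and 46.6 CPM at 135 min, and 53.4, 38.1, 22.1 and 40.5 CPM at 405 min. The highest control was in set 2 and the lowest 405 min library in set 1. The log2 difference was -0.014 at 135 min (95% interval -0.60 to 0.58, edgeR adjusted p = 0.989) and -0.17 at 405 min (95% interval -0.71 to 0.38, edgeR adjusted p = 0.628). With a term for the library set, these became 0.17 (edgeR adjusted p = 0.589) and -0.55 (edgeR adjusted p = 0.0841). With a replicate block added to that term, Bcl2l1 was called lower at 405 min (-0.62, edgeR adjusted p = 0.0484).

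Mcl1, whose mRNA and protein are known to turn over fast, measured 86.4, 84.7, 37.3, 81.4 and 91.6 CPM in control. It measured 114, 111 and 95.8 CPM at 45 min, 120, 116 and 96.7 CPM at 135 min, and 71.5, 82.6, 95.5 and 83.1 CPM at 405 min. All libraries of 45 and 135 min were above all controls, as for 0.467% and 4.79% of all tested genes. The log2 difference was 0.48 at 45 min (95% interval 0.0083 to 0.96, edgeR adjusted p = 0.698) and 0.54 at 135 min (95% interval 0.063 to 1.01, edgeR adjusted p = 0.339). Without control replicate 3 these were 0.30 and 0.37. At 405 min the difference was 0.12 (SE 0.21, edgeR adjusted p = 0.669), and the groups overlapped.

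**Figure D2:**
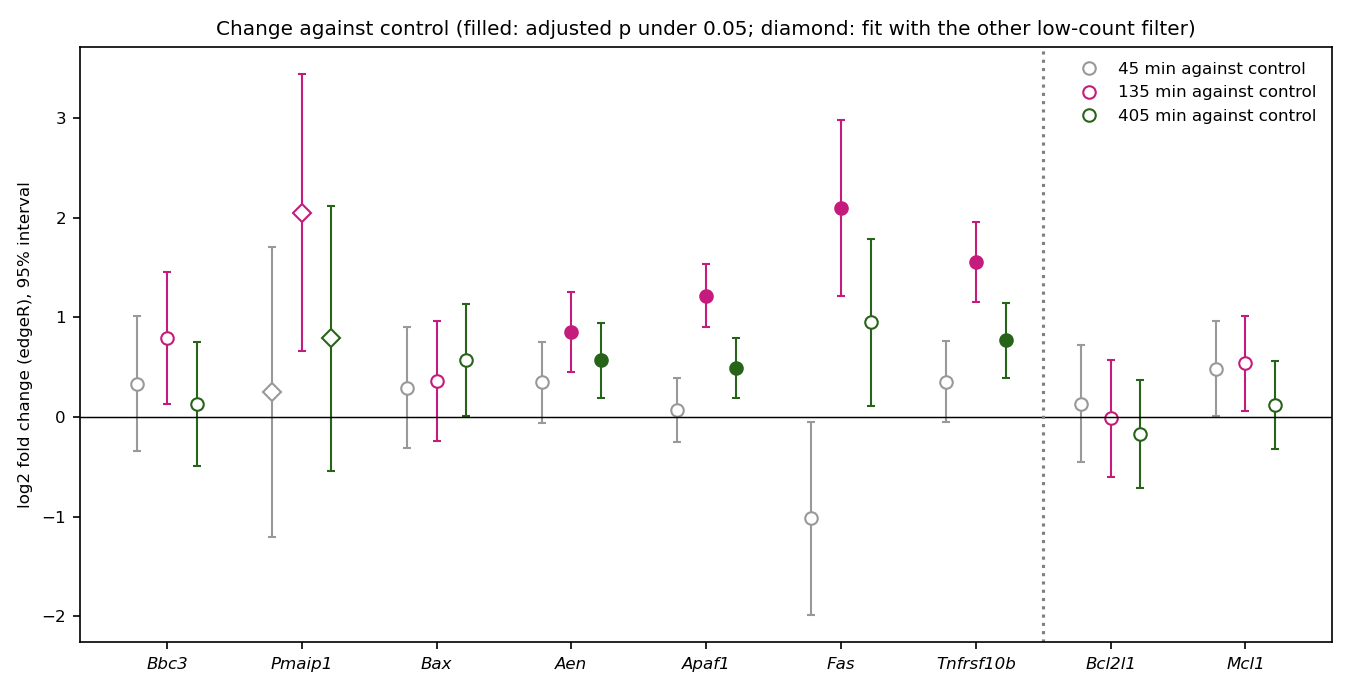
Log2 fold change against control at 45, 135 and 405 min from edgeR, with 95% intervals, for the 9 genes with a value. Filled symbols passed an adjusted p-value of 0.05, diamonds come from the filterByExpr fit and the dotted line sets off Bcl2l1 and Mcl1. The filled symbols at 135 min run from 0.85 (Aen) to 2.09 (Fas), and no symbol at 45 min is filled.

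In counts, 4 of the 6 tested pro-apoptotic genes were called higher at 135 min against the 0.564% of all tested genes, and 3 of 6 at 405 min against 9.99%. With a term for the library set these were 4 of 6 (3.06% of all tested genes) and 2 of 6 (6.17%), the latter being Tnfrsf10b and Fas. In the fit with group alone, neither survival gene was called against control. By unadjusted edgeR p-values under 0.05, 1 of the 2 passed at 45 min and at 135 min (Mcl1, higher) and 0 at 405 min, with 0 called by DESeq2 at any of these times. In that fit none of the 8 tested genes was called lower than control at 135 or 405 min, where 0.895% and 13.4% of all tested genes were, and Bcl2l1 at 405 min with the block and set term was the only such call under the alternatives. The median log2 difference of the tested pro-apoptotic genes was 0.31 at 45 min, 1.04 at 135 min and 0.57 at 405 min. The median over all tested genes was 0.022, -0.059 and -0.0014 at these times. At 45 min edgeR called 0 of the 8 tested genes, against 0.0% of all tested genes, and DESeq2 called 0. At an unadjusted edgeR p-value under 0.05, 1 was higher (Mcl1) and 1 was lower (Fas, log2 difference -1.02, with the unlike gene model noted above).

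The steps between time points were tested in the same fit. From 45 to 135 min, Fas rose by 3.11 on the log2 scale (SE 0.51, edgeR adjusted p = 0.0118), Tnfrsf10b by 1.20 (SE 0.22, edgeR adjusted p = 0.0259) and Apaf1 by 1.15 (SE 0.17, edgeR adjusted p = 0.00637), where 0.185% of all tested genes were called higher. Aen was higher by 0.51 in this step (SE 0.21, edgeR adjusted p = 0.698). Without 45 min replicate 2, the library with the shorter Fas model, the Fas step was 2.85 (edgeR adjusted p = 0.0640). Of the 6 fits without 1 library, Apaf1 was called in 3, and Fas and Tnfrsf10b in 1 each. The lost calls had edgeR adjusted p from 0.0534 to 0.0597 for Apaf1 (without 45 min replicate 1 or 135 min replicate 2 or 3), from 0.0616 to 0.0667 for Fas (all but 135 min replicate 1) and from 0.0819 to 0.136 for Tnfrsf10b (all but 45 min replicate 2).

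From 135 to 405 min, Apaf1 fell by 0.73 (SE 0.16, edgeR adjusted p = 0.0196) and Tnfrsf10b fell by 0.78 (SE 0.20, edgeR adjusted p = 0.0371) on the log2 scale, where 2.82% of all tested genes were called lower. Fas gave a log2 difference of -1.14 (SE 0.43, edgeR adjusted p = 0.119). Its libraries, like those of Apaf1, Tnfrsf10b and Mcl1, were all lower at 405 min than at 135 min, as for 17.6% of tested genes. Mcl1 differed by -0.42 (SE 0.23, edgeR adjusted p = 0.250) and Bax by 0.21 (SE 0.30, edgeR adjusted p = 0.657). With a term for the library set, Apaf1 kept its call (-0.80, edgeR adjusted p = 0.0214) and Tnfrsf10b did not (-0.68, edgeR adjusted p = 0.114), where 2.01% of all tested genes were called lower. Of the 7 fits without 1 library, Apaf1 was called in 3 (those without 405 min replicate 1, 2 or 3) and Tnfrsf10b in 1 (without 405 min replicate 3). The lost calls had edgeR adjusted p from 0.0697 to 0.107 and from 0.0613 to 0.139.

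The pro-apoptotic genes were set against the survival genes as the difference of log2 RPKM within a library, given with no test. No share over other gene pairs was computed, so groups that do not overlap cannot be set beside one. This cancels the depth of a library but not a difference between the library sets. Bcl2l1 was higher in set 2 by 0.69 on the log2 scale. All 135 min libraries were in set 1, and most 405 min libraries were in set 2. Tnfrsf10b minus Bcl2l1 had a median of -0.012 in control (range -0.55 to 0.79), 0.11 at 45 min, 1.54 at 135 min (range 1.45 to 1.76) and 0.87 at 405 min (range 0.55 to 1.72). The 135 min libraries lay above all controls, and those of 405 min overlapped with control replicate 3 alone, since the other 4 controls reached 0.15. Apaf1 minus Bcl2l1 went from a median of -1.92 in control (range -2.83 to -1.35) to -0.97 at 135 min (range -0.98 to -0.45) and -1.40 at 405 min (range -1.74 to -0.79), so Apaf1 stayed below Bcl2l1 in all groups. Aen minus Bcl2l1 was 1.05 to 1.36 in control, 1.38 to 1.48 at 45 min, 1.96 to 2.24 at 135 min and 1.67 to 2.43 at 405 min. For this pair every library after S1 withdrawal was above every control. At 45 min the margin was narrow, 1.38 against 1.36, and Aen itself overlapped with the controls and was not called. Aen minus Mcl1 was 0.30 to 1.62 in control. It overlapped with that range at 45 min (0.62 to 1.03), 135 min (1.06 to 1.57) and 405 min (0.87 to 1.81).

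Bax was set against Bcl2l1 and Mcl1, the survival genes among the genes described. The survival gene Bcl2 was not part of these pairs. Bax minus Bcl2l1 had medians of 2.07, 2.35, 2.58 and 2.96 in the 4 groups in order of time. Its controls ran from 1.31 to 3.16 and covered all of the 45 and 135 min libraries. The 405 min libraries (2.45 to 3.70) overlapped with these controls. Bax minus Mcl1 had medians of 1.80 in control, 1.71 at 45 min, 1.69 at 135 min and 2.43 at 405 min, and the 405 min libraries (2.15 to 2.58) overlapped with the controls (1.57 to 2.27). Bbc3 minus Bcl2l1 had medians of -3.59, -3.52, -2.76 and -3.32, so the survival transcript exceeded Bbc3 in every group. Tnfrsf10b minus Mcl1 at 135 min (0.59 to 1.04) overlapped with the controls (-0.91 to 1.05) through control replicate 3 alone, since the other 4 controls lay between -0.91 and -0.32.

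**Figure D3:**
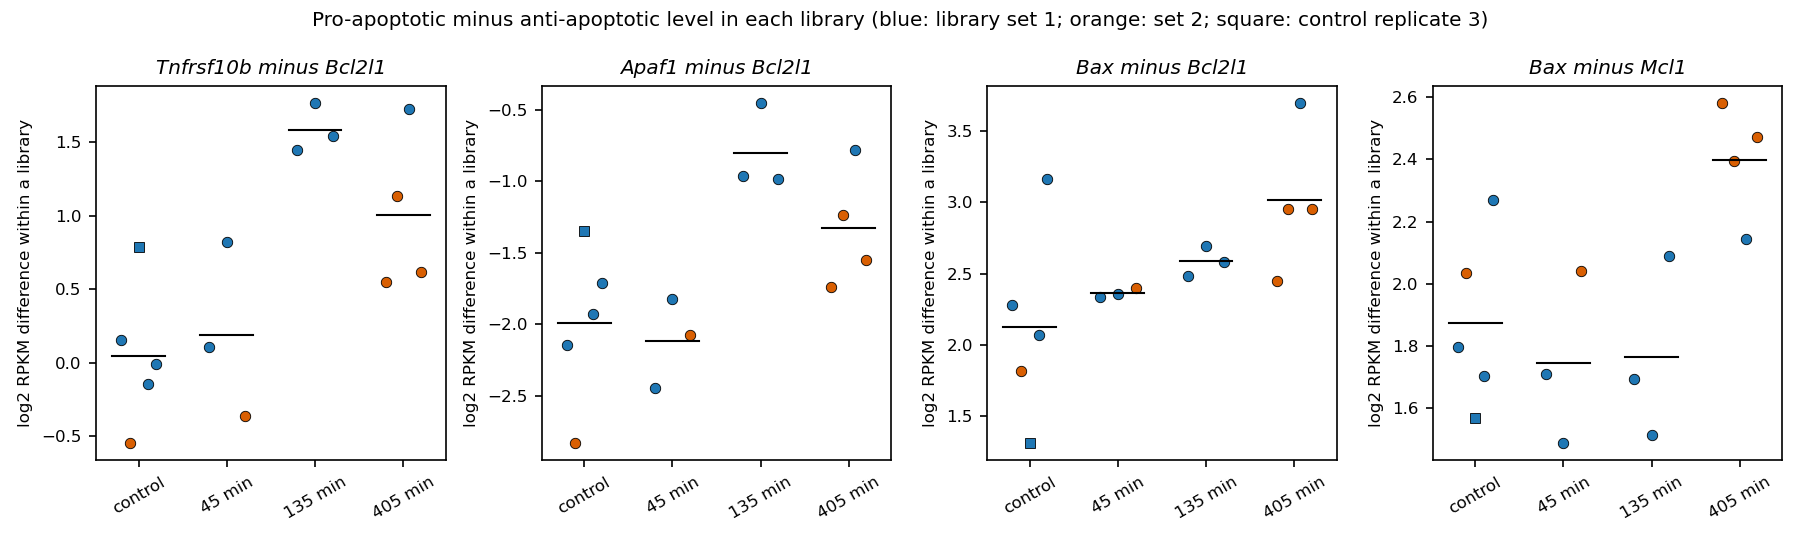
Difference of log2 RPKM between a pro-apoptotic and a survival gene in each of the 15 libraries, by group. Each point is a library, the bar is the group mean, colours mark the library sets and the square is control replicate 3. Tnfrsf10b minus Bcl2l1 lies at 1.45 to 1.76 at 135 min against -0.55 to 0.79 in control, while Bax minus Mcl1 overlaps between control and 405 min.

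The rest of the pathway was followed through fixed lists, to be read against all tested genes. Of those, 0.564% were called higher and 0.895% lower at 135 min, and 9.99% and 13.4% at 405 min. The shares with a term for the library set were 3.06% and 4.88% at 135 min and 6.17% and 6.87% at 405 min. Of the 4 p53 reference genes, 2 rose at 135 min and 3 at 405 min. Mdm2, the inhibitor of p53, rose by 2.62 at 135 min (SE 0.19, edgeR adjusted p = 6.2e-06) and 1.21 at 405 min (SE 0.17, edgeR adjusted p = 0.000434) on the log2 scale. Cdkn1a, the cell cycle inhibitor p21, rose by 2.29 and 1.83 (edgeR adjusted p = 0.000218 and 0.000247). At 45 min Cdkn1a differed by 1.41 (SE 0.25, edgeR adjusted p = 0.585), with all 3 libraries above all controls, as for 0.467% of tested genes. There it was called by DESeq2 and, with a term for the library set, by edgeR (1.27, adjusted p = 0.00224), where 0.0292% of tested genes were called higher. Trp53, the gene of p53 itself, differed by 0.21 at 135 min (edgeR adjusted p = 0.924) and was higher by 1.51 at 405 min (edgeR adjusted p = 0.0348), while with a term for the library set it was called at 135 min (0.74, edgeR adjusted p = 0.0412) and not at 405 min (0.63, edgeR adjusted p = 0.0709). Mdm4, the relative of Mdm2, differed by 0.37 and 0.18 and was not called.

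Among 14 tested of 15 other p53 targets with a role in cell death, 3 rose at 135 min. These were Trp53inp1 (log2 fold change 2.61), a p53 cofactor, Eda2r (2.36), a receptor of the TNF receptor family, and Zmat3 (1.21), an RNA-binding protein. At 405 min 6 rose: Trp53inp1 (1.82), the kinase gene Plk3 (1.57), Eda2r (1.15) and Zmat3 (0.9997), and, named beyond the limit of 4, Ei24 (0.95) and the decoy receptor gene Tnfrsf23 (0.54). Ei24 and Tnfrsf23 were not called with a term for the library set (edgeR adjusted p = 0.0783 and 0.139). At 135 min that term gave 5 higher, adding Ei24 (1.04, edgeR adjusted p = 0.00308) and Plk3 (1.11, edgeR adjusted p = 0.0303). The list medians were 0.36 and 0.58. No gene of the list was called lower by edgeR at either time, with 1 lower at 405 min at an unadjusted p-value under 0.05, and DESeq2 called 1 lower at 405 min.

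Of the other BCL2 family genes, 9 of 15 were tested, and the list median was -0.26 at 135 min and 0.024 at 405 min. At 135 min edgeR called 0 of them, with 1 higher and 0 lower at an unadjusted p-value under 0.05, and DESeq2 called 1. At 405 min the survival gene Bcl2 fell by 0.97 on the log2 scale (SE 0.25, edgeR adjusted p = 0.0171). Of the death receptor pathway, 9 of 12 genes were tested. At 135 min edgeR and DESeq2 called 0 of them, with 0 in edgeR and 1 in DESeq2 at an unadjusted p-value under 0.05, and the median was 0.043. At 405 min the TNF receptor gene Tnfrsf1a (0.87) and Tnfrsf23 rose and Cflar, the gene of the caspase-8 inhibitor FLIP, fell by 1.73, with a median of 0.033. None of these 3 was called with a term for the library set (edgeR adjusted p = 0.174, 0.139 and 0.126). Fasl, the ligand of Fas, was not tested, with group means of at most 0.132 CPM.

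Among caspases, apoptosome genes and their inhibitors, 15 of 17 were tested. At 135 min edgeR called 0, with 2 higher and 2 lower at an unadjusted p-value under 0.05, DESeq2 called 1, and the median was -0.097. Birc6 was higher (0.55, edgeR adjusted p = 0.0192) and Xiap lower (-0.89, edgeR adjusted p = 0.0142) at this time with a term for the library set. At 405 min 2 rose and 4 fell, with a median of -0.037. Those that rose were Diablo (0.86), whose protein SMAC blocks inhibitors of apoptosis, and Birc6 (0.52), one of those inhibitors. The caspase inhibitor gene Xiap fell by 1.19 and Cycs, the cytochrome c gene, fell by 1.16 on the log2 scale. Aifm1 and Birc5, named beyond the limit of 4, fell by 0.45 and 0.35 and were not called with a term for the library set (edgeR adjusted p = 0.169 and 0.115).

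**Figure D4:**
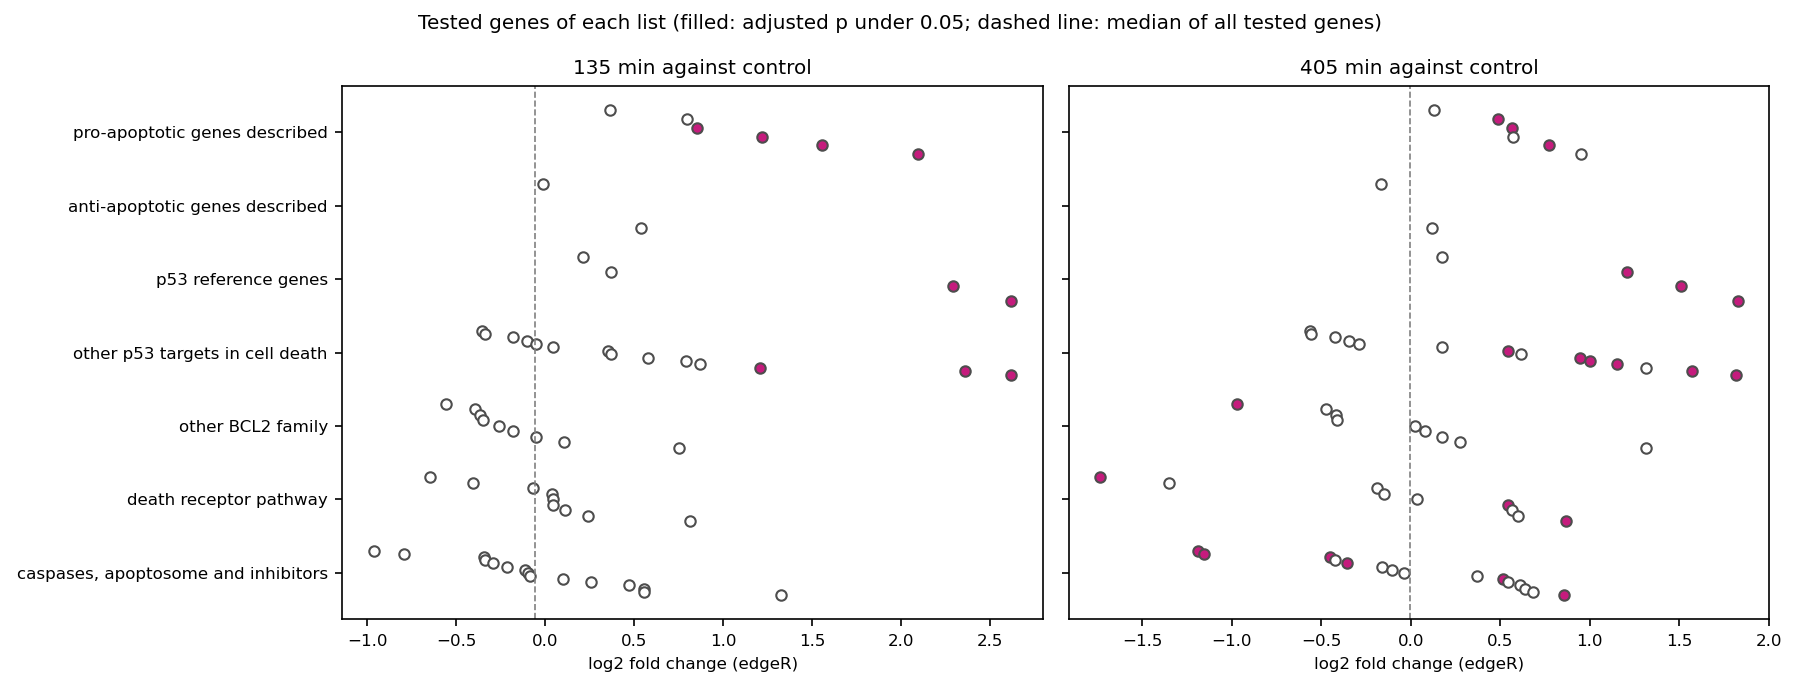
Log2 fold change against control of the tested genes in each list at 135 min and 405 min. Filled points passed an edgeR adjusted p-value of 0.05 and the dashed line is the median of all tested genes (-0.059 and -0.0014). At 135 min the filled points are in the pro-apoptotic, p53 reference and other p53 target lists, and at 405 min they are in every list but that of the survival genes Bcl2l1 and Mcl1.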

How the data were processed

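Poly(A) RNA of 15 NIH3T3 samples was sequenced on an Illumina HiSeq 2000. The authors aligned the reads to mm9 and quantified RefSeq genes on the DNAnexus platform; the aligner and the strand setting are not given in the sources used here. They deposited an expected count (an estimated count that need not be whole) and an RPKM per gene. Z-scores and RMS-normalized RPKM were also deposited and were not used. Control replicate 3 had the fewest counts.

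Expected counts were rounded, genes with at least 1 count in all 15 libraries were kept (10276 of 20207), and groups from the sample titles were fitted together with edgeR 4.0.16 in R 4.3.3 (TMM, quasi-likelihood test), after the study's methods. The design had foreseen whole counts and log2 CPM differences between genes; log2 RPKM was used for the latter because gene lengths differ. p-values were Benjamini-Hochberg adjusted over all tested genes (threshold 0.05). Each edgeR SE was derived from the test, as the absolute log2 fold change divided by the square root of its F statistic. The 95% intervals were built from these SEs. The 95% intervals and count floors cover, respectively, the fitted spread and counting error only. RPKM was used for levels between genes. DESeq2 1.42.0, other filters and scalings, the library set as a covariate, a replicate block and leaving out each library were alternatives. A check on simulated data covered only the last time point against control, with no library sets in the simulation. It does not vouch for the other comparisons or for calls that depend on the library sets. The 22 replicate pairs differed beyond sampling noise, with a chi-square per degree of freedom of at least 9.97, so none was counted as a duplicate. Exonic GC content came from NCBIM37 with GENCODE vM1 and was found for 95.7% of tested genes.

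All 10 members are named; from the other lists, called genes are named, at most 4 per list and time by absolute log2 fold change, with Mdm2, Cdkn1a and Trp53. The members and lists were chosen with earlier results of these data known.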

Additional observations from a re-analysis of the deposited data

Results flagged for a closer look

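The lowest Mcl1 level in the controls, 37.3 CPM in replicate 3, lay far from the other controls, of which the lowest had 81.4 CPM. This was the only such library among 18 groups of 4 or 5 libraries checked on log2 values. Chance alone gives about 1 such library in every 20 groups checked. Replicate 3 was also the shallowest library.

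Between 135 and 405 min, the level differed by -0.73 on the log2 scale for Apaf1 (SE 0.16, edgeR adjusted p = 0.0196). For Tnfrsf10b it differed by -0.78 (SE 0.20, edgeR adjusted p = 0.0371). The 405 min group was tested directly against the 135 min group, and neither time had controls of its own. All 135 min libraries were in set 1 and 3 of the 4 at 405 min in set 2. With a term for the set the differences were -0.80 (edgeR adjusted p = 0.0214) and -0.68 (edgeR adjusted p = 0.114).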

How the results depend on the processing

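The calls of Apaf1 and Tnfrsf10b at 135 min and of Tnfrsf10b at 405 min were the most stable: at 135 min both were called under every alternative, and at 405 min Tnfrsf10b was called under all but the fits within 1 library set, which have a single library in an arm and whose lone library is assumed to vary like the others. Counts of called genes moved as follows, and the cause was not tested. Higher at 135 min (4) became 2 with the compared groups only and 2 to 4 when each library was left out. Higher at 405 min (3) became 1 without a filter, 1 with the compared groups only, 0 within set 1, 1 within set 2, 1 with filterByExpr and the set covariate, and 1 to 4 without a library. Higher from 45 to 135 min (3) became 0 to 2 without a library. Lower from 135 to 405 min (2) became 0 without a filter, 5 with the compared groups only, 1 with the set covariate, 1 with filterByExpr and that covariate, 0 within set 1 and 0 to 2 without a library. The alternatives within set 2 and with filterByExpr and the covariate were chosen after seeing the data.

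Same-numbered replicates did not deviate together: the mean correlation over 19 pairs was -0.11 (range -0.71 to 0.44), and 2 of 15 libraries were best matched by their own number. With a replicate block, higher calls were 3 at 135 min, 1 at 405 min and 0 from 45 to 135 min, and lower calls from 135 to 405 min were 0. With the block and the set covariate, 0 were lower from 135 to 405 min and 1 (Bcl2l1) was lower at 405 min.

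Signs turned for differences that were not called, all on the log2 scale. Bcl2l1 at 135 min (-0.014) became 0.17 with the set covariate, 0.21 within set 1, 0.16 with the block and covariate, 0.17 with filterByExpr and the covariate, and -0.11 to 0.20 when each library was left out. From 45 to 135 min it became 0.063, 0.095 and 0.068 with the covariate alone, with the block and with filterByExpr. Mcl1 became -0.11 at 405 min within set 2 and -0.014 from 45 to 135 min within set 1, Apaf1 at 45 min -0.042 within set 1, and Bax from 135 to 405 min -0.044 with the block and covariate. Leaving out each library also turned signs within ranges of -0.0059 to 0.19 (Apaf1, 45 min), -0.054 to 0.26 (Bbc3, 405 min), -0.36 to 0.049 (Bcl2l1, 405 min), -0.074 to 0.20 (Mcl1, 405 min), -0.025 to 0.15 (Bax, 45 to 135 min), -0.019 to 0.14 (Mcl1, 45 to 135 min) and -0.35 to 0.036 (Bcl2l1, 135 to 405 min). No other sign turned. Counts of Bbc3, Fas, Pmaip1 and Perp limit those genes.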
